A study of Mus musculus with 35 samples.

Results

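The genes described here are 10 FGF and WNT signalling genes of the neonatal mouse lung: the ligands Fgf10, Fgf7 and Fgf9, the receptor Fgfr2, the feedback inhibitor Spry2, the ligands Wnt7b, Wnt5a and Wnt9a, the feedback gene Axin2 and the receptor Lgr6. They were taken by symbol as signals that the airway epithelium and the tissue around it are known to exchange during repair. The choice was made with earlier results of these data known, so counts of these genes beside all genes are a description. All 10 were found among the 57186 genes of the count table, and all 10 are among the 20606 genes with enough reads to test. The study measured RNA of whole lung from 35 libraries, with mice given naphthalene, a compound that kills club cells of the airways after they metabolise it, compared with untreated mice.

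The mice were of 2 genotypes, both carrying the RORaf/f alleles, in which Rora is flanked by sites for Cre recombinase. Control mice (C) have these alleles and no Cre in their label, and KO mice are RORaf/fIl7riCre, in which Cre is expressed from the Il7r locus and so acts in cells that express Il7r, chiefly lymphoid ones, and in their descendants. The design gives an age of 14 days, naphthalene mice carry a label of 2, 5 or 7 days after treatment, and untreated mice carry the same 3 day labels without a separate age. Each of the 12 groups of treatment, day and genotype has 3 libraries, apart from the naphthalene KO group of day 7, with 2. The labels do not say that each library is a separate mouse, so p-values measure the spread between libraries, which may be in part technical.

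FGF ligands made by mesenchyme and mesothelium act on epithelial FGF receptors through the ERK cascade, and Sprouty proteins such as Spry2 are induced by this signal and dampen it. WNT ligands bind Frizzled receptors. Canonical signals stabilise beta-catenin, which activates TCF/LEF targets such as Axin2, and R-spondin receptors of the Lgr family raise the sensitivity of a cell to WNT. In repair of the airway after naphthalene, Wnt7b from epithelium and Fgf10 from the parabronchial mesenchyme around the airway are known partners, and Lgr6 marks smooth muscle cells of that mesenchyme.

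Library totals ran from 10.7 to 21.06 M counts (M, mega) (median 16.16 M). At these depths 1 read corresponds to between 0.0487 and 0.0886 CPM, that is, reads per 1 M of the TMM-scaled library size. The summed level of 8 club cell markers ran from 1986 to 3257 CPM at day 2 after naphthalene and from 7560 to 11730 CPM in untreated mice of the same day label, with no overlap. Rora itself ran from 25.2 to 63.95 CPM over all libraries and differed between KO and control mice without treatment by 0.18 ± 0.12 (log2, SE, adjusted p = 0.612, edgeR). The deletion is aimed at Il7r-lineage cells, so a whole-lung level cannot check it. The letter in the library names, whose meaning the labels do not give, differs between all naphthalene and all untreated libraries of days 2 and 5, so letter and treatment cannot be told apart there. All day 7 libraries share 1 letter, and the day 7 comparisons are therefore within it. The untreated groups of days 2 and 5, and the naphthalene KO group of day 5, each hold more than 1 letter. The count of genes that passed the test at day 5 in control mice rested on single untreated libraries: it was 492 with all of them, 23 without untreated replicate 1, 154 without replicate 2 and 3544 without replicate 3.

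Promoter windows of 250 bases upstream of the start were available for 8 of the 10 genes (RefSeq, GRCm38.p6), with Wnt7b and Wnt5a not among them. They are shown for Axin2, the standard readout of canonical WNT signalling, and for Lgr6, the receptor gene that differed between treatments at day 5. Capitals mark GC boxes (GGGCGG, or CCGCCC on the other strand).
Axin2: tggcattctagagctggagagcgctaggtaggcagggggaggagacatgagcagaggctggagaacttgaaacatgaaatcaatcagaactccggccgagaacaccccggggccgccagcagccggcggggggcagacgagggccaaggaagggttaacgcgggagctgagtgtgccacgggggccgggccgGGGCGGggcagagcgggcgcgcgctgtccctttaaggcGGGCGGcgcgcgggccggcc
Lgr6: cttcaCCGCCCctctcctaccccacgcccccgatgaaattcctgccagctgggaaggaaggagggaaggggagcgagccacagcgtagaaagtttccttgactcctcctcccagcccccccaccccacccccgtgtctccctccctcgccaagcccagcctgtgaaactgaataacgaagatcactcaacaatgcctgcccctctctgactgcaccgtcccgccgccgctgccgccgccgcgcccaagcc
The Axin2 window lies at chr11:108920099-108920348 on the plus strand and the Lgr6 window at chr1:135105277-135105526 on the minus strand, both written 5′ to 3′ along the gene. Axin2 has 2 GC boxes, 24 CpG dinucleotides and a GC content of 69.2%, and Lgr6 has 1, 16 and 65.2%, against a median GC content of 52.4% over all 32851 windows. A GC box on either strand occurs in 32.7% of these windows. The TCF/LEF core CTTTGA, or TCAAAG on the other strand, occurs in 13.8% of all windows and in none of the 8 windows of these genes, which says only that these letters are not in 250 bases.

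Levels per kilobase were set side by side using merged exon lengths from the GENCODE M21 annotation (GRCm38), matched by Ensembl identifier. Mean levels over the 35 libraries were 24.3 CPM per kb for Spry2, 11.6 for Fgfr2, 11.3 for Axin2, 6.98 for Wnt5a, 6.53 for Fgf7, 5.5 for Fgf10, 3.78 for Wnt9a, 2.64 for Lgr6, 2.43 for Wnt7b and 0.154 for Fgf9. Fgfr2 and the feedback genes thus lay above the ligands and Lgr6, and Fgf9 lay far below all others, with only 2 to 26 reads in a library. Neighbours in this order cannot be ranked closely, since the counted gene models may differ from those of M21. The ratio of the highest to the lowest group mean was 4.9 for Wnt7b, 4.84 for Fgf9 and 3.31 for Lgr6, and it was 1.2 for Fgfr2 and 1.51 for Axin2.

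**Figure D1:**
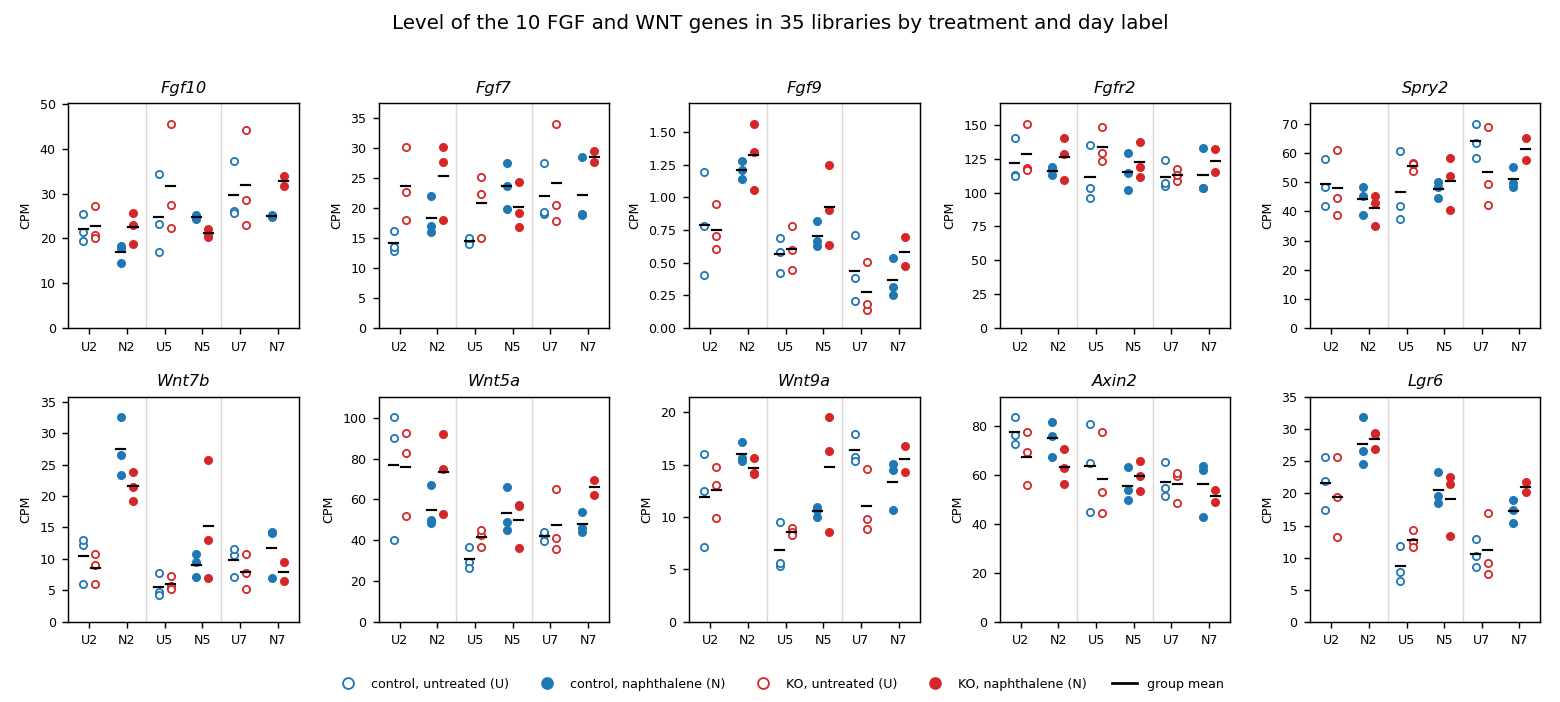
Level in CPM (y axes, each starting at 0) of the 10 genes in every library, by treatment and day label (U untreated, N naphthalene, followed by the day), with control mice in blue, KO mice in red, open symbols for untreated mice and bars for group means. Wnt7b at day 2 after naphthalene (19.23 to 32.48 CPM) lies above all untreated libraries, while Fgfr2 stays between 96.2 and 151 CPM throughout.

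Wnt7b, the epithelial WNT ligand, was the member that differed at day 2. In control mice its level was 26.58, 23.4 and 32.48 CPM at day 2 after naphthalene and 12.22, 12.97 and 6.015 CPM in untreated mice. In KO mice it was 19.23, 21.41 and 23.89 CPM after naphthalene and 6.022, 10.79 and 8.977 CPM without. In both genotypes every treated library lay above every untreated one. Untreated control replicate 3 and untreated KO replicate 1, the lowest of their groups, share a library letter that the other untreated libraries of day 2 lack. The log2 change was 1.40 ± 0.36 in controls (SE, n = 3 per group, adjusted p = 0.0165, edgeR) and 1.31 ± 0.36 in KO mice (adjusted p = 0.0403, edgeR). Wnt7b was the 1 of 10 members that passed the test as higher at day 2 in each genotype, where 2.57% of all genes passed as higher in the controls and 1.99% in the KO mice. Treated libraries lay wholly above untreated ones for 1 of 10 members in control mice, against 10.7% of all genes, and for 3 of 10 in KO mice (Wnt7b, Fgf9 and Lgr6), against 9.92%. The median change over the 10 members was 0.15 in control mice against -0.04 over all genes, and 0.05 against -0.04 in KO mice. The call in control mice rested on naphthalene replicate 3 (adjusted p = 0.0758 without it, edgeR) and untreated replicate 3 (0.104 without it), and that in KO mice was lost without any 1 of its 6 libraries (log2 1.12 to 1.51, adjusted p from 0.058 to 0.177).

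At day 5, Wnt7b was 9.424, 7.038 and 10.85 CPM in naphthalene control mice against 4.801, 4.286 and 7.733 CPM in untreated ones. In KO mice it was 6.951, 25.73 and 13.02 CPM against 5.659, 5.165 and 7.229 CPM. The groups overlapped in both genotypes, and replicate 2 of the naphthalene KO mice, whose library name carries a letter of its own, was the highest of the day 5 libraries. The changes of 0.69 ± 0.37 in control mice (adjusted p = 0.247, edgeR) and 1.34 ± 0.36 in KO mice (adjusted p = 0.0574, edgeR) did not pass the test, and the KO value was 0.73 without that library and 1.70, which passed (adjusted p = 0.00412, edgeR), without naphthalene replicate 1. By day 7 the changes were 0.27 ± 0.36 and 0.01 ± 0.41, and 0 of 10 members were called in control or KO mice, against 0.0388% and 0.0728% of all genes. The day 7 effect was lower than the day 2 effect by a log2 difference of -1.22 ± 0.37, which did not pass the test (adjusted p = 0.125, edgeR). Of the 10 members, 0 passed for a difference from day 2 in the effect at day 5, against 0.67% of all genes, and 0 at day 7, against 1.01%.

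Wnt7b is also made by the mesothelium, the cell layer covering the lung. Over the 35 libraries the genes most like Wnt7b were Porcn, which encodes the enzyme that lipidates WNT ligands for secretion (Pearson r = 0.937), Msln, a mesothelial marker (0.935), and Tmem108 (0.933), from log2 CPM of 13970 genes. The libraries share depth and treatment groups, so these values are a description. Msln rose at day 2 by a log2 change of 1.77 ± 0.33 in controls (adjusted p = 0.000799, edgeR) and 2.01 ± 0.33 in KO mice (adjusted p = 0.000295, edgeR). Of 7 mesothelial markers, 1 passed the test as higher at day 2 in control mice and 2 in KO mice, where Muc16 was the other at 1.43 ± 0.38 (adjusted p = 0.0348, edgeR). Wt1, the transcription factor of mesothelium, was not called, with a change of 0.12 ± 0.37 in controls and 0.79 ± 0.38 in KO mice. The summed level of the 7 markers was 350 to 436.6 CPM in naphthalene control mice of day 2 against 185.5 to 278.1 CPM in untreated ones, none was at 0, and in KO mice the sums were 315.6 to 341.3 against 173.1 to 192.3 CPM. Markers of other cells moved at day 2 as well. Of 8 ciliated cell markers 6 were called higher in control and 3 in KO mice. The control sums were 610.9 to 683.9 CPM after naphthalene and 447.8 to 493 CPM without, and the KO sums overlapped (445.8 to 500.8 against 400.2 to 494.2 CPM). Basal cell markers were called higher for 3 of 6 and 2 of 6. Their sums were 5.265 to 10.22 against 2.281 to 3.199 CPM in control mice and 4.993 to 8.023 against 2.214 to 3.649 CPM in KO mice. Neutrophil markers were called higher for 3 of 7 in each genotype. Their sums were 390.4 to 527.7 against 93.74 to 333 CPM in control mice and overlapped in KO mice (121.7 to 407.1 against 109.4 to 149.8 CPM). Of the 8 club cell markers 5 were called lower in each genotype. B cell sums were lower without overlap, at 293.4 to 360.8 against 412.8 to 603.5 CPM in control mice. In KO mice they were 190 to 323.8 against 421.4 to 535.3 CPM. Of these markers 0 of 6 and 1 of 6 were called lower. Sums of 10 markers of group 2 innate lymphoid cells were higher, at 107 to 125.8 against 49.76 to 78.24 CPM in control mice. In KO mice they were 96 to 134.4 against 57.44 to 94.49 CPM. Of the 9 tested, 2 were called higher in each genotype. The part of these markers and of the mesothelial ones in the Wnt7b result was not tested. In RNA of whole lung, a change in the number of cells and a change in RNA per cell cannot be told apart, here or for the genes that follow.

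Lgr6, the receptor that marks airway smooth muscle, differed at day 5. Its level in control mice was 19.61, 23.3 and 18.55 CPM after naphthalene and 6.328, 11.8 and 7.733 CPM without, with no overlap. In KO mice it was 13.43, 22.56 and 21.47 CPM against 14.24, 12.49 and 11.62 CPM, where 1 treated library lay among the untreated ones. The change was 1.25 ± 0.26 in control mice (adjusted p = 0.0133, edgeR) and 0.58 ± 0.26 in KO mice (adjusted p = 0.337, edgeR). Lgr6 was the 1 of 10 members called as higher in control mice at day 5, against 1.1% of all genes, and 0 of 10 were called in KO mice, against 1.32% of all genes called in either direction. With Fgf7, Wnt5a and Wnt9a it made 4 of 10 members whose treated control libraries lay wholly above the untreated ones at day 5, against 13.5% of all genes. The member median at day 5 was 0.46 against -0.01 over all genes in control mice. The call was lost without naphthalene replicate 2 (log2 1.15, adjusted p = 0.0879, edgeR), without untreated replicate 1 (1.07, adjusted p = 0.154) and in a fit of these 2 groups alone (1.26, adjusted p = 0.0836).

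At the other days the mean of Lgr6 also lay above its untreated mean. In control mice the means were 27.7, 20.5 and 17.2 CPM at days 2, 5 and 7 after naphthalene, and 21.7, 8.62 and 10.6 CPM without. In KO mice they were 28.5, 19.2 and 21 CPM after naphthalene, and 19.4, 12.8 and 11.2 CPM without. Treated and untreated means of Lgr6 were thus both lower at day 5 than at day 2. At day 2 the changes were 0.35 ± 0.25 in control and 0.55 ± 0.25 in KO mice, and neither was called. At day 7 the control libraries had 15.33, 19.02 and 17.39 CPM after naphthalene against 10.3, 8.556 and 12.83 CPM without, and the KO libraries had 21.85 and 20.15 against 9.211, 17.02 and 7.382 CPM. The groups did not overlap in either genotype, and the changes of 0.70 ± 0.26 (adjusted p = 1, edgeR) and 0.91 ± 0.29 (adjusted p = 0.397, edgeR) were not called. Lgr6 was the 1 of 10 members with the naphthalene libraries wholly above at day 7 in each genotype, as were 5.43% of all genes in the controls and 8.9% in the KO mice. In control mice 3 of 10 members, Fgf10, Spry2 and Wnt9a, lay wholly below at that day, against 3.01% of all genes, and in KO mice 0 did.

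Averaged over both genotypes, a comparison added after the values were seen, Lgr6 was higher by 0.92 ± 0.18 at day 5 (adjusted p = 0.00216, edgeR) and by 0.81 ± 0.19 at day 7 (adjusted p = 0.0552, edgeR). The day 7 value passed with DESeq2 (adjusted p = 0.0158) and without untreated KO replicate 2 (log2 1.02, adjusted p = 0.00558, edgeR). Of 8 smooth muscle markers, 0 were called in any of the 6 comparisons of naphthalene with untreated mice within a genotype, and none was at 0. In the averaged comparison 1 of the 8 was called at day 5, Lmod1 at 0.53 ± 0.14 (adjusted p = 0.0223, edgeR), and 1 at day 2, Smtn at -0.42 ± 0.13 (adjusted p = 0.0275, edgeR). Markers of several other cell types differed at day 5 in control mice. The summed level of 10 fibroblast markers was 13100 to 14970 CPM after naphthalene and 5447 to 10760 CPM without. Of these, 2 of 10 were called as higher, Dcn at 0.85 ± 0.20 (adjusted p = 0.0226, edgeR) and Lum at 1.63 ± 0.26 (adjusted p = 0.00141, edgeR). Cardiac muscle markers were called higher for 3 of 7, with sums of 318.6 to 394.2 against 205.9 to 295 CPM, and B cell markers lower for 3 of 6, with 197.4 to 226.4 against 349.5 to 694.6 CPM. The sums of alveolar type 2 markers (26300 to 33900 against 9634 to 23850 CPM) and of mesothelial markers (244.6 to 268.2 against 151 to 229.7 CPM) did not overlap either, with 0 of 8 and 0 of 7 called. Club cell sums were lower, at 4840 to 5808 against 9689 to 14100 CPM, with 1 of 8 called lower. Sums for group 2 innate lymphoid cells were 67.77 to 74.95 against 78.08 to 89.03 CPM, though 2 of 9 tested markers were called higher. In KO mice the fibroblast sums of day 5 overlapped, at 8829 to 14420 against 7953 to 11120 CPM, with 0 of 10 called. Other markers differed there too. Called higher were 5 of 8 ciliated, 1 of 7 mesothelial, 1 of 6 basal and 2 of 9 innate lymphoid markers. Club cell sums were 4313 to 6092 against 10530 to 12840 CPM, with 1 of 8 called lower. B cell sums were 152.7 to 347.4 against 374.3 to 413.3 CPM, with 0 of 6 called. The part of these cell types in the Lgr6 result was not tested. At day 7 the fibroblast sums overlapped, at 12040 to 14970 against 12500 to 14720 CPM in control mice. The genes most like Lgr6 over 35 libraries were Trim67 (Pearson r = 0.852), Fam131b (0.841) and Cilp (0.825).

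**Figure D2:**
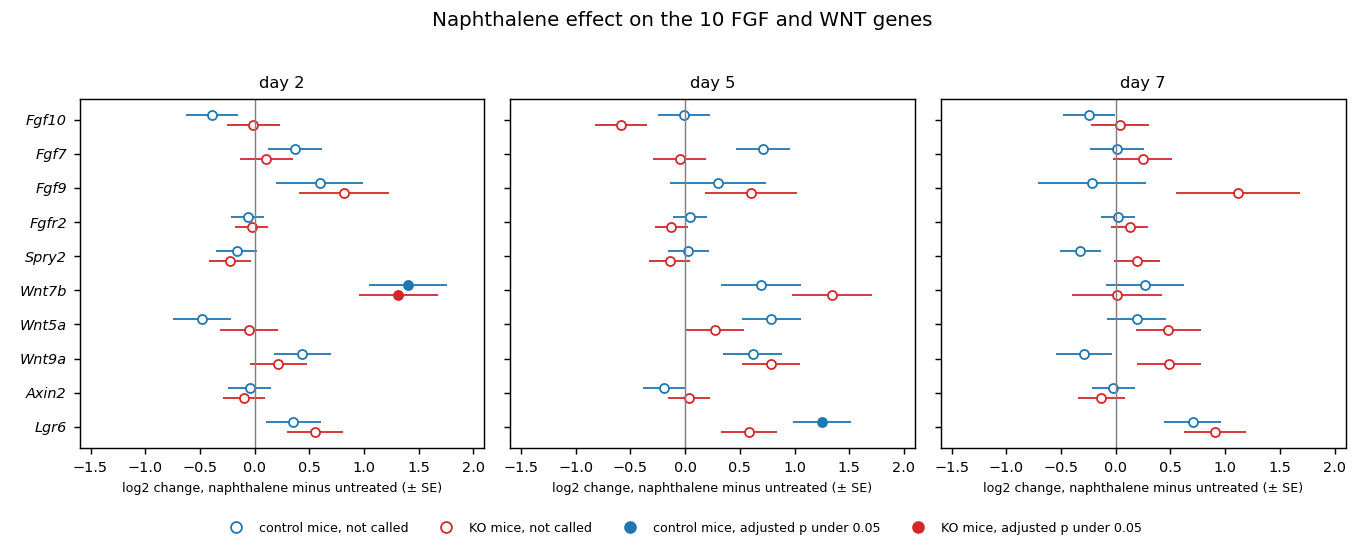
Log2 change with its SE (x axis) of the 10 genes after naphthalene at days 2, 5 and 7, in control (blue) and KO mice (red), with filled symbols for adjusted p under 0.05. Filled symbols are Wnt7b at day 2 in both genotypes and Lgr6 at day 5 in control mice, and Lgr6 lies above 0 in all 6 comparisons.

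The WNT ligands Wnt5a and Wnt9a were not called after naphthalene in either genotype alone. Wnt5a, best known for non-canonical signals, was 48.89, 66.25 and 44.81 CPM in control mice at day 5 after naphthalene and 29.46, 26.49 and 36.53 CPM in untreated ones. The groups did not overlap, and the change of 0.79 ± 0.27 did not pass the test (adjusted p = 0.0886, edgeR), though it did without untreated replicate 3 (0.95, adjusted p = 0.0326, edgeR). In KO mice it was 36.06, 57.25 and 56.86 CPM against 42.67, 45.1 and 36.7 CPM, a change of 0.27 ± 0.27. At day 2 its change was below 0 in control mice, at -0.48 ± 0.26, and the day 5 effect exceeded the day 2 effect by 0.80 ± 0.27 (adjusted p = 0.161, edgeR). Its mean in control mice was 54.9 and 53.3 CPM at days 2 and 5 after naphthalene, and 76.8 and 30.8 CPM without. In KO mice the means were 73.2 and 50.1 CPM after naphthalene, and 75.6 and 41.5 CPM without. The treated mean of Wnt5a thus did not rise from day 2 to day 5, and the untreated mean was lower at day 5.

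Wnt9a was 10.94, 10.01 and 10.64 CPM in naphthalene control mice of day 5 against 5.31, 5.621 and 9.547 CPM in untreated ones, with no overlap. In KO mice it was 8.615, 19.5 and 16.29 CPM against 8.976, 8.528 and 8.285 CPM, where replicate 1 after naphthalene lay at the untreated level. The changes were 0.62 ± 0.27 (adjusted p = 0.158, edgeR) and 0.79 ± 0.26 (adjusted p = 0.165, edgeR). They passed without untreated control replicate 3 (0.96, adjusted p = 0.0264, edgeR) and without naphthalene KO replicate 1 (1.08, adjusted p = 0.0144, edgeR), respectively. Averaged over genotypes, 3 of 10 members passed as higher at day 5, namely Lgr6, Wnt7b (1.02 ± 0.26, adjusted p = 0.0156, edgeR) and Wnt9a (0.70 ± 0.19, adjusted p = 0.0213, edgeR), against 4.34% of all genes. At day 2 of this averaged comparison 1 of 10 did, Wnt7b at 1.36 ± 0.25 (adjusted p = 0.000336, edgeR), against 5.6% of all genes, and at day 7 0 of 10 did, against 0.335%. Without naphthalene KO replicate 2, Wnt7b (0.72, adjusted p = 0.117, edgeR) and Wnt9a (0.58, adjusted p = 0.101) were no longer called at day 5. The Wnt9a call was also lost without naphthalene KO replicate 3 (adjusted p = 0.0596, edgeR), untreated control replicate 1 (0.0721) or 2 (0.0619), or untreated KO replicate 2 (0.0504).

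The FGF ligands gave no call after naphthalene. Fgf10, the mesenchymal ligand of Fgfr2, was 18.24, 14.61 and 17.89 CPM at day 2 after naphthalene in control mice and 21.42, 25.54 and 19.44 CPM without, so that the treated libraries were the lower ones. The change of -0.39 ± 0.24 did not pass the test (adjusted p = 0.559, edgeR), and in KO mice it was -0.01 ± 0.24. At day 5 Fgf10 in KO mice was 20.97, 20.3 and 22.09 CPM against 45.6, 22.34 and 27.52 CPM. These groups did not overlap, and the change of -0.59 ± 0.24 was not called (adjusted p = 0.289, edgeR). The share of all genes whose treated libraries lay wholly below is not given for these comparisons, so the lack of overlap is a description. The 95% interval of the Fgf10 change in control mice ran from -0.87 to 0.10 at day 2 and from -0.49 to 0.47 at day 5.

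Fgf7, another mesenchymal ligand of Fgfr2, was 23.59, 27.48 and 19.86 CPM in naphthalene control mice of day 5 against 14.55, 13.91 and 14.93 CPM in untreated ones. The groups did not overlap, and the change of 0.71 ± 0.25 was not called (adjusted p = 0.0949, edgeR). In KO mice it was 19.13, 16.76 and 24.29 CPM against 22.31, 25.1 and 14.96 CPM, a change of -0.05 ± 0.24. The difference between the genotypes in the day 5 effect was -0.76 ± 0.35 (adjusted p = 0.544, edgeR). Fgf9, a ligand of mesothelium and epithelium, was 1.061 to 1.564 CPM at day 2 after naphthalene over both genotypes and 0.4072 to 1.193 CPM without. Its averaged change of 0.71 ± 0.29 was not called (adjusted p = 0.119, edgeR), at 16 to 26 reads per treated library.

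Fgfr2, the epithelial receptor of Fgf7 and Fgf10, and the feedback genes Spry2 and Axin2 were not called in any comparison. Fgfr2 was 119.1, 113.3 and 116.3 CPM in naphthalene control mice of day 2 and 140.1, 112.6 and 112 CPM in untreated ones, and its 6 naphthalene changes lay between -0.13 and 0.13 with SE of 0.15 to 0.17. The 95% intervals in control mice ran from -0.37 to 0.25 at day 2, from -0.27 to 0.35 at day 5 and from -0.29 to 0.33 at day 7. Spry2 was 45.19, 38.89 and 48.27 CPM against 41.83, 57.88 and 48.38 CPM in the same groups, overlapping, with a change of -0.16 ± 0.19. Axin2 was 75.82, 67.4 and 81.58 CPM against 72.45, 83.48 and 76.17 CPM, also overlapping. Its changes at day 2 were -0.05 ± 0.19 (interval -0.44 to 0.35) in control mice and -0.10 ± 0.19 (-0.49 to 0.30) in KO mice, in the same libraries in which Wnt7b was higher.

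In untreated mice some of these genes differed between day labels. Wnt5a was 90.13, 100.1 and 40.18 CPM in control and 51.63, 82.88 and 92.33 CPM in KO mice labelled day 2, and 26.49 to 45.1 CPM over the 6 libraries labelled day 5. Control replicate 3 of day 2 was thus the only one of the 6 within the day 5 range. It shares a library letter with KO replicate 1 of day 2, at 51.63 CPM. The remaining untreated libraries of day 2, at 82.88 to 100.1 CPM, carry another letter. The day 5 level was lower by a log2 difference of -1.09 ± 0.19 (adjusted p = 0.00465, edgeR) and the day 7 level by -0.78 ± 0.19 (adjusted p = 0.00615, edgeR). Lgr6 was lower by -0.97 ± 0.18 at day 5 (adjusted p = 0.0104, edgeR) and by -0.92 ± 0.18 at day 7 (adjusted p = 0.00128, edgeR). These were 2 of 10 members called lower at day 5, against 0.379% of all genes, and with Fgf9 (-1.17 ± 0.33, adjusted p = 0.0186, edgeR) 3 of 10 at day 7, against 7.7%. Lgr6 at day 5 was no longer called without untreated KO replicate 3 of day 2 (-0.85, adjusted p = 0.0582, edgeR). The Fgf9 call was lost without control replicate 3 of day 2 (adjusted p = 0.0668, edgeR), control replicate 2 of day 7 (0.0538), KO replicate 2 (0.0501) or KO replicate 3 (0.0594) of day 7. Age, day label and library letter cannot be told apart in this comparison. The untreated libraries of days 2 and 5 are also the baseline of the naphthalene effects above, so the 2 sets of values share samples. The fibroblast sum in untreated control mice was 7721 to 17750 CPM at day 2, 5447 to 10760 at day 5 and 12500 to 14720 at day 7, and its part in these differences was not tested.

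KO and control mice did not differ in any member by the test. In untreated mice averaged over days 0 of 10 members and 0% of all genes were called, with 1759 genes at an unadjusted p under 0.05, and DESeq2 called 1 gene. In naphthalene mice 0 of 10 and 0% were called, with 1036 genes at an unadjusted p under 0.05 and 0 by DESeq2. The largest member value was Fgf7 in untreated mice, at 12.81, 13.55 and 16.18 CPM in control mice of day 2 against 30.11, 17.9 and 22.63 CPM in KO mice, and it was higher by 0.46 ± 0.14 over the 3 days (adjusted p = 0.581, edgeR). At days 2 and 5, Fgf7 in control mice lay between 12.81 and 16.18 CPM and only 1 of the 6 KO libraries, at 14.96 CPM, was in that range. At day 7 the untreated groups overlapped, with 18.97, 27.53 and 19.27 CPM against 20.51, 33.97 and 17.73 CPM. This split by day was not among the planned comparisons, and the share of all genes that lie apart in this way was not counted. The difference between genotypes in the naphthalene effect gave 0 of 10 members and 0% of all genes at each day, with 371, 1869 and 882 genes at an unadjusted p under 0.05 at days 2, 5 and 7 and 0 by DESeq2. For Wnt7b at day 2 this difference was -0.09 with an interval of -1.11 to 0.93, and for Lgr6 at day 5 it was -0.66 with an interval of -1.41 to 0.08.

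Other genes of these pathways were counted in 8 lists of 97 genes, of which 86 could be tested. At day 2 after naphthalene 2 were called higher and 4 lower in control mice, where 2.57% of all genes were called higher and 1.18% lower. In KO mice 2 were called higher and 3 lower, where the shares of all genes were 1.99% and 0.747%. At day 5 the counts were 2 and 0 in control mice, where 1.1% of all genes were called higher, and 1 and 0 in KO mice, where 1.32% were called in either direction. At day 7 0 of 86 were called in either genotype. The higher counts of 2 and 1 of 86 lie near the shares over all genes. Averaged over genotypes, 4 were higher and 6 lower at day 2, against 5.6% and 4.3% of all genes, and 5 higher and 2 lower at day 5, against 4.34% and 2.82%. The medians at day 2 were -0.12 in control and -0.02 in KO mice, beside -0.04 and -0.04 over all genes.

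Secreted antagonists of WNT were among the genes called. Sfrp1, which encodes a secreted Frizzled-related protein that binds WNT ligands, was 20.58, 13.18 and 26.96 CPM at day 2 after naphthalene and 7.693, 8.667 and 4.874 CPM without in control mice, and 21.81, 22.5 and 19.62 against 6.73, 5.893 and 7.007 CPM in KO mice. All treated libraries lay above all untreated ones. It rose by 1.51 ± 0.28 (adjusted p = 0.000744, edgeR) and 1.70 ± 0.28 (adjusted p = 0.000295, edgeR), and at day 5 by 1.5 ± 0.28 (adjusted p = 0.00638, edgeR) and 1.14 ± 0.28 (adjusted p = 0.0271, edgeR). The day 5 control call was lost without untreated replicate 1 (1.31, adjusted p = 0.0903, edgeR), and the day 5 KO call without naphthalene replicate 2 (adjusted p = 0.214) or 3 (0.204), or untreated replicate 2 (0.19) or 3 (0.0917). At day 5 Sfrp2, a second antagonist of that family, was also higher in control mice, at 13.6, 14.74 and 9.382 CPM against 1.091, 1.827 and 6.453 CPM, by 1.97 ± 0.47 (adjusted p = 0.0295, edgeR). That Sfrp2 call was lost without naphthalene replicate 1 (adjusted p = 0.0934, edgeR) or 2 (0.12), or untreated replicate 1 (0.201) or 2 (0.136), and its log2 change ranged from 1.58 to 3.11 over the 6 fits leaving out 1 library.

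Wif1, another secreted WNT inhibitor, moved the other way. It was 6.859, 5.548 and 5.265 CPM at day 2 after naphthalene in control mice against 23.76, 32.11 and 17.16 CPM without, and 6.631, 10.23 and 7.145 against 20.81, 23.63 and 33.28 CPM in KO mice. All treated libraries were below all untreated ones. It fell by 2.04 on the log2 scale in control mice (SE 0.32, adjusted p = 0.000139, edgeR) and by 1.69 in KO mice (SE 0.32, adjusted p = 0.00161, edgeR), calls that held without any 1 of the 12 libraries. At day 5 the changes were -0.06 and -0.57, and at day 7 -0.32 and 0.01, none of them called.

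Among the remaining lists, Fgfbp1, a secreted carrier of FGF ligands, was 15.47, 11.04 and 10.85 CPM at day 2 after naphthalene in control mice against 3.944, 3.025 and 3.37 CPM without. It rose by 1.85 ± 0.34 there (adjusted p = 0.000857, edgeR) and by 1.53 ± 0.35 in KO mice (adjusted p = 0.00907, edgeR), where the call was lost without naphthalene replicate 1 (adjusted p = 0.0663) or 3 (0.0903) or untreated replicate 2 (0.108). Shh, the epithelial hedgehog ligand, was 19.09, 15.27 and 22.14 CPM at day 2 after naphthalene in control mice against 35.11, 31.88 and 38.94 CPM without. All treated libraries were lower, and it fell by 0.91 (SE 0.21, adjusted p = 0.00819, edgeR) and in KO mice by 0.98 (SE 0.21, adjusted p = 0.00596, edgeR). The Shh calls were lost without naphthalene control replicate 2 (adjusted p = 0.0818, edgeR) and without naphthalene KO replicate 3 (0.0946) or untreated KO replicate 3 (0.0599).

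Hhip, the hedgehog-binding inhibitor that is itself a hedgehog target, fell at day 2 in control mice by 0.83 (SE 0.21, adjusted p = 0.0178, edgeR), with 36.15, 39.88 and 43.39 CPM against 84.48, 71.72 and 55.48 CPM. In KO mice its change was -0.38 ± 0.21 (adjusted p = 0.406, edgeR). The Hhip call was lost without naphthalene replicate 1 (adjusted p = 0.115, edgeR) or 2 (0.0695) or untreated replicate 1 (0.149) or 2 (0.0529). Wnt10b, a canonical WNT ligand, fell at day 2 by 0.91 in control mice (SE 0.21, adjusted p = 0.00933, edgeR) and by 0.85 in KO mice (SE 0.22, adjusted p = 0.0252, edgeR). The Wnt10b calls were lost without naphthalene control replicate 1 (adjusted p = 0.0925, edgeR) or untreated control replicate 3 (0.07), and in KO mice without naphthalene replicate 1 (0.172) or 3 (0.208) or untreated replicate 2 (0.0825) or 3 (0.209). The summed markers of alveolar type 2 cells and fibroblasts, other sources of these signals, overlapped between treatments at day 2 in control mice, at 19650 to 28070 against 10650 to 26850 CPM and 6889 to 11080 against 7721 to 17750 CPM. In KO mice the alveolar type 2 sums were higher without overlap, at 22780 to 27510 against 17600 to 20930 CPM with 0 of 8 markers called, and the fibroblast sums overlapped, at 7532 to 12380 against 8568 to 13940 CPM. Their part in these results was not tested.

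**Figure D3:**
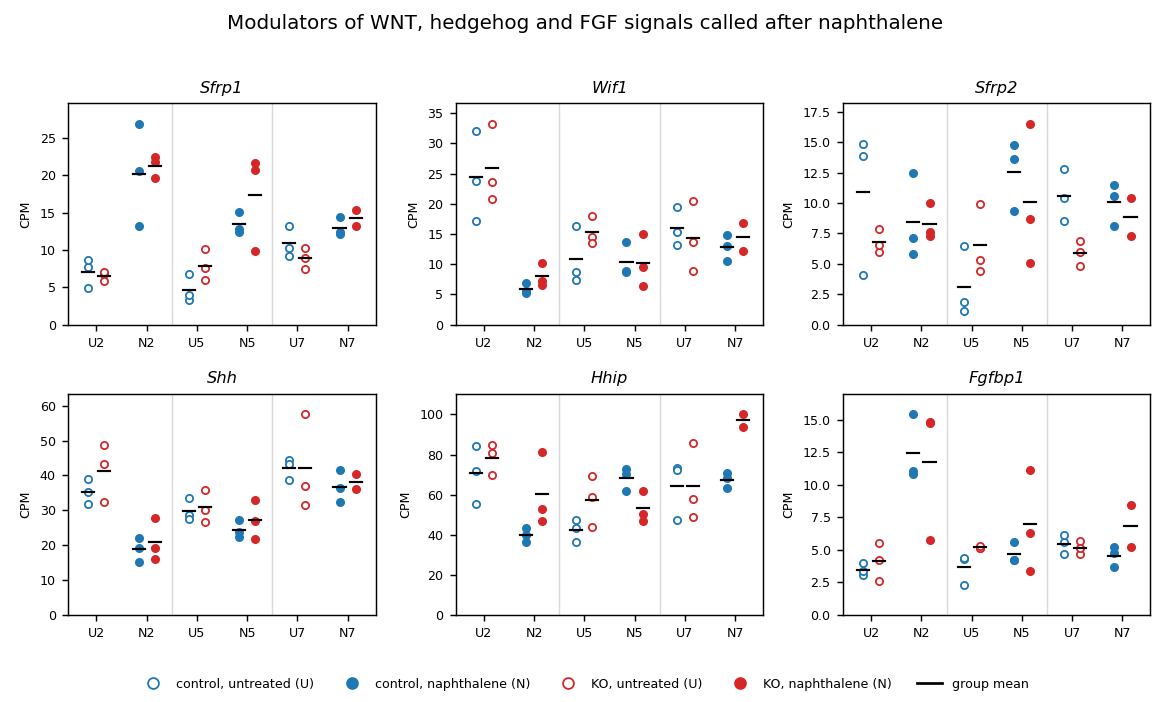
Level in CPM (y axes, starting at 0) of 6 secreted or membrane modulators in every library, by treatment and day label (U untreated, N naphthalene), with control mice in blue, KO mice in red, open symbols for untreated mice and bars for group means. At day 2 Sfrp1 and Fgfbp1 lie higher and Wif1 and Shh lower after naphthalene, with untreated Wif1 at 17.16 to 33.28 CPM and treated Wif1 at 5.265 to 10.23 CPM.

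In 4 of the 8 lists no gene was called within a genotype. Of 7 tested FGF ligands, Fgf1 and Fgf2 had the highest levels, with day 2 changes in control mice of 0.01 ± 0.18 and -0.18 ± 0.17. Of 11 FGF and ERK feedback genes and targets, Dusp6, a phosphatase that switches ERK off, changed by -0.35 ± 0.20 and 0.02 ± 0.20 at day 2 in control and KO mice. Spry1, a relative of Spry2, was the other abundant one. Of 20 WNT receptors and R-spondins, the co-receptor Lrp6 changed by -0.12 ± 0.13 and -0.23 ± 0.13 and the receptor Fzd4 by 0.49 ± 0.20 and 0.38 ± 0.20. Of 11 WNT feedback genes and targets, Nkd1 and Ccnd1 had the highest levels, and Ccnd1, a cyclin of the cell cycle, changed by 1.45 ± 0.49 at day 5 in control mice without passing the test (adjusted p = 0.0877, edgeR). Over both genotypes, Fzd4 and Nkd2 were called higher and the R-spondins Rspo3 and Rspo4 lower at day 2, by 0.43 ± 0.14, 0.53 ± 0.16, -1.02 ± 0.31 and -1.06 ± 0.32. Leaving out 1 of the 12 libraries ended these calls in 10, 7, 6 and 6 fits, with adjusted p up to 0.129, 0.162, 0.0871 and 0.102 (edgeR). Rspo3 had a mean level of only 0.662 CPM, with at most 22 reads in a library.

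At day 5 the averaged comparison called Sfrp1 (1.32 ± 0.20) and Sfrp2 (1.30 ± 0.33) higher and 5 genes not called in either genotype alone. Sdc1, which encodes a heparan sulfate proteoglycan, was higher by 0.94 ± 0.26 (adjusted p = 0.0253, edgeR), the receptor gene Fzd10 by 1.57 ± 0.42 (adjusted p = 0.0227, edgeR) and the ligand gene Wnt9b by 2.25 ± 0.66 (adjusted p = 0.0356, edgeR). The mean level was only 0.647 CPM for Fzd10, with at most 27 reads in a library, and 0.299 CPM for Wnt9b. Lef1, a transcription factor of the canonical pathway, was lower at -0.35 ± 0.10 (adjusted p = 0.0331, edgeR), and Ccn1, a secreted matrix protein gene, at -1.43 ± 0.37 (adjusted p = 0.0177, edgeR). All 5 calls were lost without naphthalene KO replicate 3, untreated control replicate 1 or untreated KO replicate 2, and all but that of Ccn1 also without naphthalene KO replicate 2 or untreated control replicate 2. Those of Sdc1, Wnt9b and Lef1 were lost without naphthalene control replicate 1, and those of Fzd10 and Lef1 without replicate 3 of that group.

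Between the day labels of untreated mice, 0 of 86 pathway genes were called higher and 3 lower at day 5 than at day 2, against 0.379% of all genes called lower. The 3 were Fgf18 (-1.31 ± 0.31), Wnt11 (-1.14 ± 0.24) and Wif1 (-0.96 ± 0.22), and their calls were lost in 9, 7 and 9 of 12 fits without 1 library (adjusted p up to 0.211, 0.108 and 0.168, edgeR). At day 7, 2 were higher, Fgf2 at 0.56 ± 0.12 and Lrp6 at 0.34 ± 0.09, against 6.06% of all genes. Another 7 genes were lower at that label, against 7.7% of all genes, namely Spred3, Wnt11, Lgr5, Dkk3, Wif1, Ccn1 and Snai2, with log2 differences of -1.33 to -0.51. Leaving out 1 of 12 libraries ended the calls of Lrp6 in 1 fit, Ccn1 in 2, Lgr5 and Dkk3 in 4, Wif1 in 6 and Snai2 in 7. The Ccn1 calls were lost without control replicate 3 or KO replicate 1 of day 2, with a difference of -0.66 in the fit nearest 0. These values are the untreated baseline of the naphthalene effects above.

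**Figure D4:**
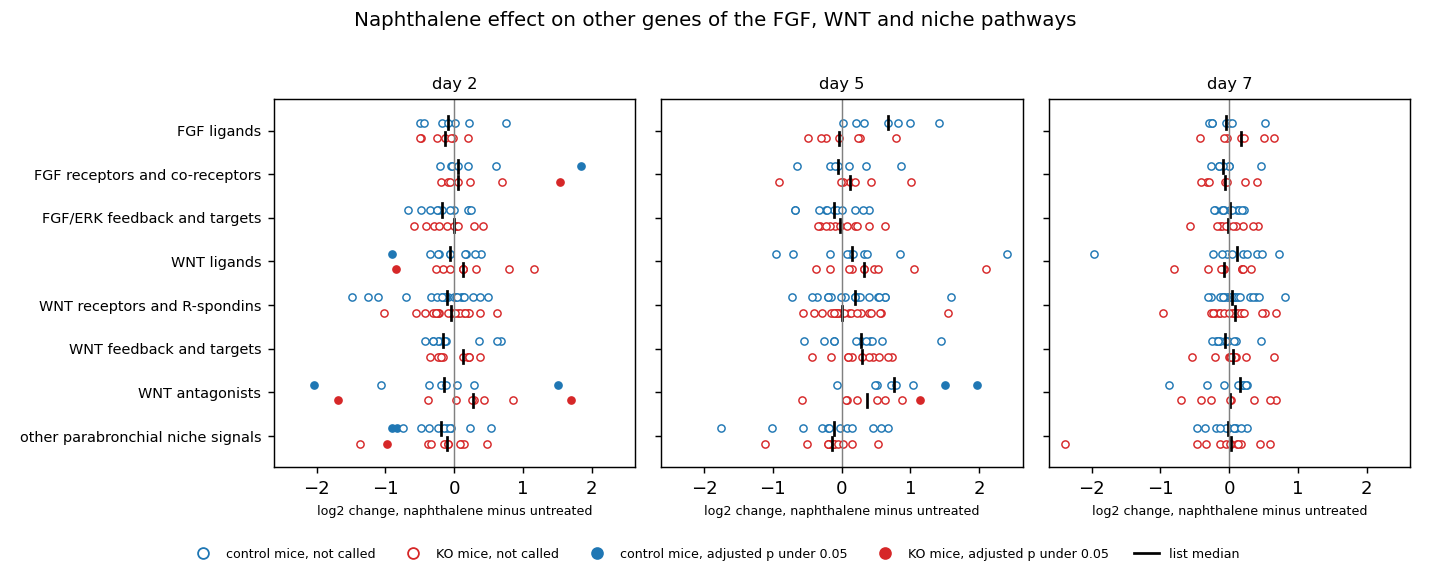
Log2 change after naphthalene (x axis) of the other genes in 8 pathway lists at days 2, 5 and 7, 1 symbol per gene, with control mice in blue, KO mice in red, filled symbols for adjusted p under 0.05 and black bars for list medians. Filled symbols stand apart from the medians of their lists at day 2, and none is present at day 7.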

How the data were processed

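RNA of whole lung was extracted with Trizol and made into libraries with a Watchmaker Genomics mRNA kit, per the labels' protocols. The authors deposited 1 table of unnormalised counts per gene for 35 libraries, whole numbers whose totals differ by library. GRCm39 and DESeq2 are named in the submitters' processing notes with no role, and neither the aligner nor the annotation release is given in the sources used here, so no GRCm39 positions are given. Genes were kept by filterByExpr (edgeR 4.0.16, R 4.3.3, minimum count 10, minimum total 15), scaled by TMM and fitted with 12 group means by robust quasi-likelihood, with 23 residual degrees of freedom. Each of 18 contrasts was tested with the two-sided quasi-likelihood F-test and Benjamini-Hochberg adjustment over 20606 genes, with a threshold of 0.05. An effect of naphthalene is naphthalene minus untreated at the same genotype and day label, and ± is the SE of the contrast. Likeness used log2 CPM with a prior count of 2, among genes of at least 1 CPM on average. The text names all 10 genes, the genes of each pathway list called in a comparison of naphthalene with untreated mice and, for a list with none called within a genotype, its 2 most abundant. Pathway genes called between untreated day labels are named by their calls, after their values were seen. Members, lists and comparisons were chosen with earlier results of these data known. The fit was checked on counts simulated for the day 2 comparison in control mice. The counts were drawn independently, with equal group means apart from genes seeded with a change and no shift shared by many genes. In this simulation edgeR recovered 35.4% of seeded 2-fold and 79.8% of seeded 4-fold changes, with 5 false calls among 118. Real libraries may hold shared shifts, so these rates may not carry over to them. A gene that was not called may still differ by 2-fold. No 2 libraries of the same group agreed within sampling noise, and pairs from different groups were not compared. Alternatives were DESeq2 1.42.0, RLE factors, no filter on low counts, a replicate block, the compared groups alone and leaving out each library.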

Additional observations from a re-analysis of the deposited data

Results flagged for a closer look

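The effect of naphthalene differed between days for 4 genes that signal around the airway, by a test of the difference itself, averaged over both genotypes (edgeR, adjusted over all genes). For Wif1 the effect was higher at day 5 than at day 2 by 1.55 (log2, SE 0.32, adjusted p = 0.0131) and at day 7 by 1.72 (SE 0.32, adjusted p = 0.00473), and both calls held without any 1 library. Its level in untreated mice, the baseline of these effects, was itself lower at day 5 than at day 2, by -0.96 (SE 0.22, adjusted p = 0.0371), and at day 7, by -0.73 (SE 0.22, adjusted p = 0.0248), calls lost in 9 and 6 of 12 fits without 1 library. For Hhip the differences were 0.89 (SE 0.21, adjusted p = 0.038) and 0.93 (SE 0.22, adjusted p = 0.0247). Leaving out 1 library ended the first Hhip call in 13 of 24 fits and the second in 6 of 23, with adjusted p up to 0.102 and 0.0696. For Fgfbp1 the day 7 effect was lower than that of day 2, at -1.62 (SE 0.35, adjusted p = 0.0157), and the call was lost without naphthalene KO replicate 2 of day 7 (adjusted p = 0.0651). For Sfrp1 it was -1.14 (SE 0.28, adjusted p = 0.0403), a call lost in 15 of 23 fits without 1 library, with adjusted p up to 0.112. Library letter differs between treatments at days 2 and 5 and not at day 7, and cannot be told apart from day in these differences.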

How the results depend on the processing

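Beside the leave-outs given with each result, the counts of members called changed as follows. With no filter on low counts 3 were called at day 5 in control mice, 1 at day 5 in KO mice, 1 each for the day 5 and the day 7 effect minus that of day 2, 4 in untreated mice of day 5 against day 2, 4 at day 5 and 1 at day 7 averaged over genotypes. At day 7 of the untreated mice the unfiltered fit lost Fgf9 (adjusted p = 0.0512, edgeR) and gained Fgf10 (0.45, adjusted p = 0.0493, edgeR). In a fit of the compared groups alone 0 were called at day 5 in control mice. With DESeq2 1 was called at day 5 in KO mice (Wnt7b) and 1 at day 7 averaged over genotypes (Lgr6), and 4 in untreated mice of day 7 against day 2, where Fgf10 was added (0.46, adjusted p = 0.0452). Leaving out 1 library gave 0 to 1 members at day 2 in control mice, 0 in KO mice, 0 to 3 at day 5 in control and 0 to 2 in KO mice, 0 to 1 for day 5 minus day 2, 1 to 4 at day 5 and 0 to 1 at day 7 averaged over genotypes, and 1 to 3 and 2 to 4 in untreated mice of days 5 and 7 against day 2. RLE factors changed no count of members called.

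Counts over all genes moved more. With no filter they were 1056 at day 2 and 635 at day 5 in KO mice, 2118 at day 5 in control mice, and 76 and 103 for KO minus control in untreated and naphthalene mice, with 12, 168 and 51 genes for the genotype difference in the effect at days 2, 5 and 7. At day 7 they were 45 in control and 161 in KO mice and 209 averaged. For the differences from day 2 they were 695 at day 5 and 603 at day 7, in untreated mice 516 at day 5, and 2696 at day 5 averaged. DESeq2 called 1329 at day 5 in control and 449 in KO mice, 15 and 31 at day 7 and 132 averaged, 391 and 364 for the differences from day 2, 190 in untreated mice of day 5 and 1 for KO minus control in untreated mice. The compared groups alone gave 261 at day 2 in KO mice, 26 and 24 at day 5 and 3 at day 7 in control mice. Leaving out 1 library gave 23 to 3544 at day 5 in control and 68 to 901 in KO mice. The cause was not tested.

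Replicate numbers are shared by name only: deviations of same-numbered libraries correlated at -0.305 to 0.156 over 17 pairs, 3 of them over 0.1. With the replicate block 1 member was called at day 7 averaged over genotypes (Lgr6, 0.82, adjusted p = 0.0419, edgeR), the Sfrp1 difference of day 7 from day 2 was not called (-1.10, adjusted p = 0.0636, edgeR), and 5 genes were called at day 7 in control mice. Levels without TMM factors moved 7 of 120 group means by over 1 SD, at most by 0.14 on the log2 scale. Depth limits Fgf9, whose counts are too low to show any but large differences.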
